A study of Homo sapiens with 6 samples.

Results

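Kinesins are motor proteins that walk along microtubules, and the human genes for them carry the symbol KIF followed by a number. The genes described here are all protein-coding genes in the deposited count table whose symbol is KIF, a number and at most one letter A to C with one further digit, which gave 39 genes of 58299 in the table. RNA was sequenced from AC16, an established human line derived by fusion of ventricular heart muscle cells with a transformed fibroblast line. The treated group (n = 3 libraries) received 100 nM CDDO-Me for 24 h and then 100 nM doxorubicin for 48 h. The control group (n = 3 libraries) was kept in 0.1% DMSO, the solvent, for 72 h. CDDO-Me (bardoxolone methyl) releases the transcription factor NRF2 from its inhibitor KEAP1, and doxorubicin is an anthracycline that poisons topoisomerase II. Cells given either agent alone were not analysed here, so a difference cannot be assigned to one of them. All libraries come from 1 line. The labels do not state whether replicates are separate cultures, so each p-value reflects only how much these libraries vary, and that variation may be technical.

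A kinesin motor domain turns ATP hydrolysis into steps along a microtubule or, in some families, into removal of tubulin from its ends. One set of kinesins builds and shortens the mitotic spindle, aligns chromosomes and carries out cytokinesis, and its genes are transcribed mainly in G2 and mitosis. A second set hauls vesicles, mitochondria, RNA and ciliary material through the cytoplasm in dividing and resting cells alike. Some of these transport motors are best known from neurons, where they serve the axon.

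Depth was 17150259 to 20193957 counts per library, and 15575 genes were tested. Of 12 cardiomyocyte markers, 11 were below 1 CPM (TMM-normalised read counts scaled to a common depth) in every library, TNNI3 was at 0, and only GATA4 was tested. All 9 fibroblast markers were detected, with a summed level of 5284 to 5682 CPM in treated libraries and 14180 to 15414 CPM in controls. Endothelial markers summed to 11.4 to 12.1 CPM in treated libraries and 21.6 to 24.4 CPM in controls. That fall was in TEK alone (mean 7.01 CPM in treated libraries and 20.7 CPM in controls). KDR, VWF, PECAM1 and CDH5 had higher means in treated libraries. Leukocyte markers summed to 4.91 to 5.66 CPM in treated libraries and 2.003 to 3.08 CPM in controls. Most of that rise was in PTPRC (mean 3.82 CPM in treated libraries and 1.11 CPM in controls), while CD14 had a lower mean in treated libraries. The part of these shifts in the kinesin results was not tested. CDKN1A, the cell cycle inhibitor p21, stood at 4248 ± 234 CPM in treated libraries and 216 ± 10.7 CPM in controls, and the proliferation markers MKI67 and TOP2A had log2 changes of -0.50 and -1.14. The part of any of these in the kinesin results was likewise not tested.

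Mitotic kinesins fell together, transport kinesins moved in both directions with more falls than rises, and a few kinesins of low level rose. Of the 39 genes, 31 passed the filter on low counts, and 5 of these rose, 19 fell and 7 were not called (edgeR quasi-likelihood test, adjusted p below 0.05). Over all 15575 genes tested with the same rule, 32.3% were called higher and 31.2% lower, 63.5% in all. In this bulk RNA, fewer cells in mitosis and less of a transcript per cell cannot be told apart. Of the kinesins, 6 fell and 4 rose at least 2-fold, where 4.62% of all tested genes were called lower and 10.9% higher by that much. The median log2 change was -0.27 over the 31 kinesins and 0.02 over all tested genes. The groups did not overlap in 25 of the 31 (66.7% of all tested genes), with 19 lower in every treated library (32.6% of all tested genes) and 6 higher in every treated library (34.1%). Scaling by total counts alone moved the median of all genes to 0.15 and the share of higher calls among all calls to 63.8%, where TMM scaling gave 50.8%; the kinesin counts were then 8 higher and 16 lower. All directions given are on the TMM scale.

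**Figure D1:**
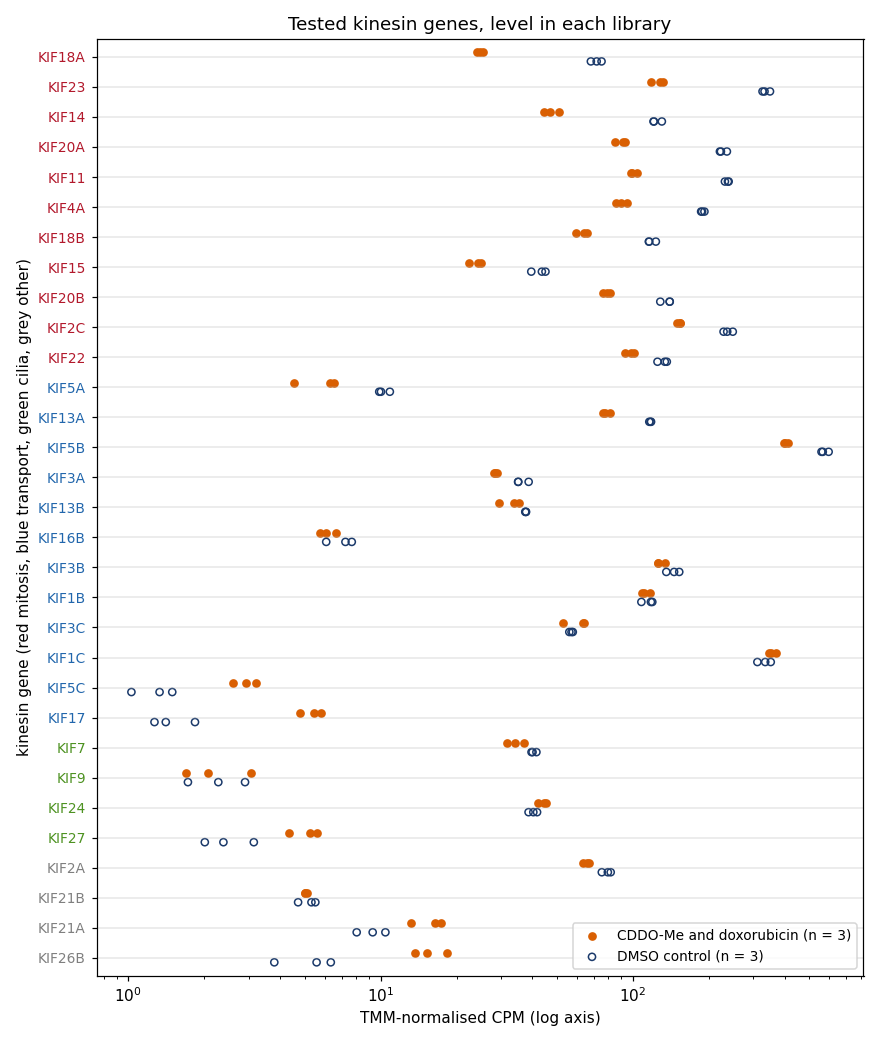
Level of each tested kinesin gene in each library, as TMM-normalised CPM on a log axis. Filled orange points are the 3 treated libraries and open blue circles the 3 control libraries, and genes are grouped by role and sorted by log2 change within a role. The 11 mitotic genes at the top lie left of their controls in every library, and KIF17 and KIF26B lie clearly to the right.

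All 11 tested kinesins of mitosis and cytokinesis fell, 6 of them at least 2-fold, and in each the treated libraries all lay below the controls. Their log2 changes ran from -1.53 to -0.43 with a median of -1.07, whereas the 20 tested kinesins outside this list had a median of -0.04, with 5 higher, 8 lower and 7 not called. All 11 were also called lower under RLE, upper-quartile and total-count scaling and without any one library. Against a change of 1.5-fold with glmTreat in place of no change, 9 of the 11 were called. Against no change, 31.2% of all tested genes were called lower and 4.62% lower at least 2-fold. Treated libraries all lay below the controls in 32.6% of all tested genes. The list was chosen with earlier results of these data known.

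The largest falls were those of KIF18A, KIF23, KIF14 and KIF20A. KIF18A, a kinesin of microtubule plus ends that settles chromosomes on the metaphase plate (ENSG00000121621, GRCh38 chromosome 11, 28020620 to 28108308), had 25.5, 24.1 and 24.8 CPM in treated libraries, against 68.2, 71.9 and 75.1 CPM in controls. Each treated library thus held far less than the lowest control. The log2 change was -1.53 (SE 0.068, edgeR adjusted p = 2.25e-29), and 1.6% of all tested genes had a lower log2 change. KIF23, the motor subunit of centralspindlin, which bundles the central spindle in cytokinesis (ENSG00000137807, chromosome 15, 69414246 to 69448427), had 132, 118 and 128 CPM in treated libraries, against 333, 327 and 350 CPM in controls. It fell by 1.42 on the log2 scale (SE 0.050, edgeR adjusted p = 1.05e-34). KIF14, which works with citron kinase at the midbody, had 51.2, 44.6 and 47.0 CPM in treated libraries and 121, 121 and 130 CPM in controls. It fell by 1.38 on the log2 scale (SE 0.059, edgeR adjusted p = 2.29e-30). KIF20A, which brings Aurora B to the central spindle, had 93.2, 91.5 and 84.9 CPM in treated libraries and 236, 221 and 223 CPM in controls. It fell by 1.34 on the log2 scale (SE 0.051, edgeR adjusted p = 1.34e-32). None of these groups of libraries came near the other.

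KIF11, KIF4A, KIF18B, KIF15 and KIF20B also fell, each by less than KIF20A. KIF11 (Eg5), the tetrameric motor that pushes spindle poles apart, had 98.6, 99.0 and 104 CPM in treated libraries and 232, 240 and 238 CPM in controls. It fell by 1.24 on the log2 scale (SE 0.050, edgeR adjusted p = 1.31e-31). KIF15, which can hold the spindle bipolar when KIF11 is blocked, had 24.4, 22.4 and 25.1 CPM in treated libraries and 39.6, 43.6 and 45.0 CPM in controls, a log2 change of -0.83 (SE 0.077). Treated libraries lay below all controls for both of these motors. KIF4A, a chromosome-bound motor that limits the length of the central spindle together with PRC1, averaged 90.1 ± 4.74 CPM in treated libraries and 189 ± 2.92 CPM in controls (log2 change -1.07, SE 0.052). KIF18B, which trims astral microtubules, averaged 63.1 ± 3.13 CPM in treated libraries and 118 ± 4.30 CPM in controls (log2 change -0.91, SE 0.056). KIF20B, a motor of late cytokinesis, averaged 78.9 ± 2.54 CPM in treated libraries and 136 ± 6.65 CPM in controls (log2 change -0.79, SE 0.054).

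The mitotic motors that fell least were KIF2C and KIF22. KIF2C (MCAK), a microtubule depolymerase that corrects faulty chromosome attachments, averaged 152 ± 2.70 CPM in treated libraries and 238 ± 10.1 CPM in controls (log2 change -0.64, SE 0.049). KIF22 (Kid), a chromosome-bound motor that pushes chromosome arms away from the poles, averaged 97.7 ± 4.27 CPM in treated libraries and 132 ± 5.84 CPM in controls (log2 change -0.43, SE 0.053). KIF2C and KIF22 were the 2 mitotic motors not called against 1.5-fold. Another gene overlapped 13.0% of the exon bases of KIF22, and without strand information the reads of these genes cannot be told apart.

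**Figure D2:**
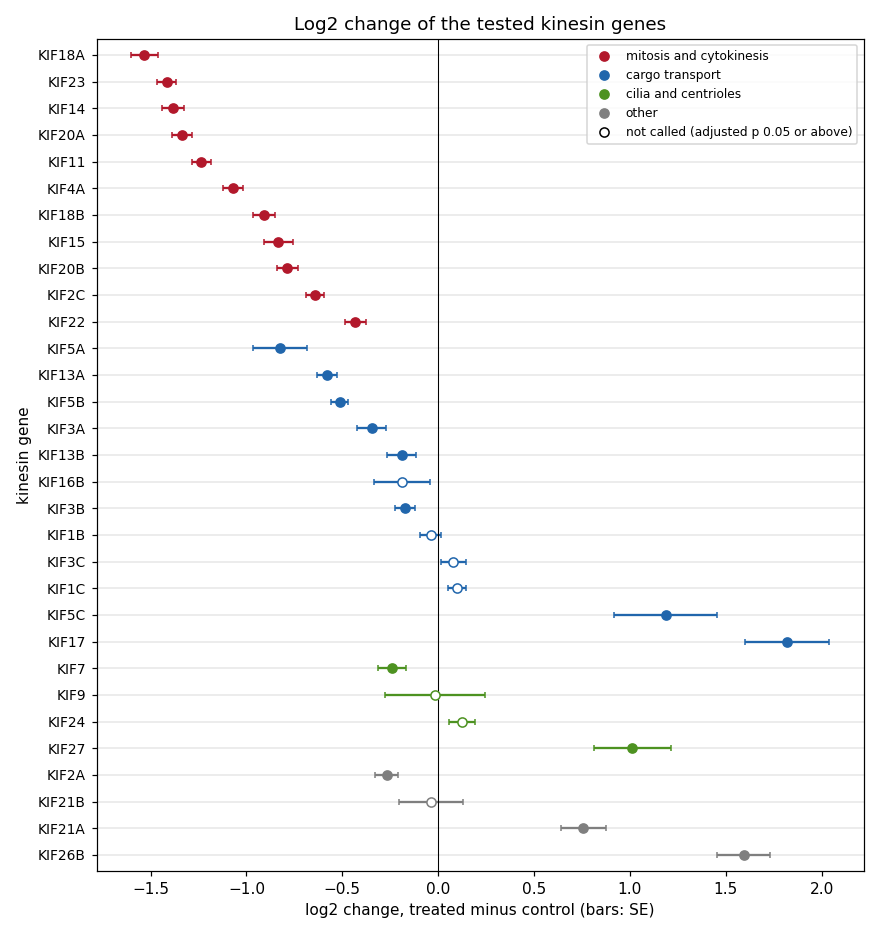
Log2 change (treated minus control) of the 31 tested kinesin genes with its standard error, from the fit across all genes. Points are coloured by role, and open points were not called at an adjusted p below 0.05. All 11 mitotic genes lie left of 0, between -1.53 and -0.43, and the genes right of 0.5 are KIF21A, KIF27, KIF5C, KIF26B and KIF17.

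Promoters of the mitotic kinesins shared short elements that the naming rule did not use. The cell cycle genes homology region (CHR), read here as TTTGAA or TTTAAA, is an element of many genes of G2 and mitosis, where the DREAM complex and B-MYB with FOXM1 are known to bind. CCAAT is the element of the factor NF-Y. Both were searched on both strands (TTCAAA and ATTGG on the other strand; TTTAAA is its own complement) in RefSeq windows on GRCh38.p14 from 250 bases before to 50 bases after the gene start, which were given for 33 of the 39 genes. A CHR was found in 10 of the 11 tested mitotic kinesins and in 2 of the 15 other tested kinesins with a window, and in 24.5% of 27305 promoters of all genes and 16.2% of 10605 promoters of tested protein-coding genes. CCAAT was found in 9 of the 11 and 5 of the 15, and in 35.6% of all promoters and 36.3% of those of tested protein-coding genes. Both stood in 8 of the 11 mitotic windows, in 1 of the 15 others and in 6.68% of promoters of tested protein-coding genes. KIF22, the mitotic kinesin that fell least, was the one without a CHR in its window. KIF2C, with the next smallest fall (log2 change -0.64), held a CHR and no CCAAT, and so did KIF15.

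The windows below show the 6 mitotic kinesins that fell at least 2-fold, from 120 bases before to 30 bases after the gene start, with CHR and CCAAT letters in capitals. They lie at chr11:28108127-28108276 on the minus strand, chr15:69414229-69414378 on the plus strand, chr1:200620722-200620871 on the minus strand, chr5:138178992-138179141 on the plus strand, chr10:92593010-92593159 on the plus strand and chrX:70289984-70290133 on the plus strand. In KIF18A, KIF23, KIF20A, KIF11 and KIF4A the CHR began at -10, -55, -41, -28 and -34 relative to the gene start, and in KIF14 it began at 2. Within this printed stretch, CCAAT or its complement stood upstream of the CHR in each of the 6, and the motifs did not overlap. The searched windows of KIF23 and KIF14 held a further CHR match, at -211 and -198. These lay outside the printed stretch and upstream of the CCAAT match.
KIF18A: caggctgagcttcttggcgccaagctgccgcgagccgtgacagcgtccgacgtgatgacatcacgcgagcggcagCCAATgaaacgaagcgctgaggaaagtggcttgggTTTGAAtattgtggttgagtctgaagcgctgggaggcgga
KIF23: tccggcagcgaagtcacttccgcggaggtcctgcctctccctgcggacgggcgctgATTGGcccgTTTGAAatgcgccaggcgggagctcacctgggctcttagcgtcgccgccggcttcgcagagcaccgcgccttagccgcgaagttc
KIF14: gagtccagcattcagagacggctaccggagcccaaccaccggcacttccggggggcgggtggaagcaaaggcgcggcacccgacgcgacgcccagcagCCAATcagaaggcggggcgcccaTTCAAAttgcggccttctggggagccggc
KIF20A: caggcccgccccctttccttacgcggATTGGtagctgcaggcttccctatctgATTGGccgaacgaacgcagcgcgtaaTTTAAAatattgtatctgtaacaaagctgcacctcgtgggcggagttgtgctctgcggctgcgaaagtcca
KIF11: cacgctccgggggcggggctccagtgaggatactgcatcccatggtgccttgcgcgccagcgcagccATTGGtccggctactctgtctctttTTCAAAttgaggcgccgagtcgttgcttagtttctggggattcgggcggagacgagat
KIF4A: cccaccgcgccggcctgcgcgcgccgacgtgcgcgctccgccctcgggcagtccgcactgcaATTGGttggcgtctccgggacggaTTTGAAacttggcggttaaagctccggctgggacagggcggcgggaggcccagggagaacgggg

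The next 2 windows were chosen by the log2 change of their genes. KIF22 (chr16:29790631-29790780 on the plus strand), the mitotic kinesin that fell least, held ATTGG alone in this stretch. KIF17 (chr1:20717978-20718127 on the minus strand), the tested kinesin with the largest rise, held neither motif.
KIF22: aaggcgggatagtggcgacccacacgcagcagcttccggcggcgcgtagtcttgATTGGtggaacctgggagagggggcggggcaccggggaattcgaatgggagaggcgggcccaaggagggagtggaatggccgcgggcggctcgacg
KIF17: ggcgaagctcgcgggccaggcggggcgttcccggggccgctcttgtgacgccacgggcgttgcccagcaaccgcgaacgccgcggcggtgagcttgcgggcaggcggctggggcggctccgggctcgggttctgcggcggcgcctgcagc
The 2 other tested kinesins with a CHR were KIF5B, where it began at -140, and KIF16B, where it began at -241. Outside the mitotic list, KIF13A, KIF3A, KIF2A and KIF7, which fell, held neither motif in their windows. KIF3B, which also fell, held CCAAT, and KIF5B held both motifs. Of those that rose and had a window, KIF17 and KIF21A held neither and KIF5C held CCAAT. A match is a description of letters in a window, and neither binding nor the start sites used in AC16 cells were measured. The part of these motifs in the changes was not tested.

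KIF4B is an intronless copy of KIF4A and is counted apart from it. It had 6 counts over the 3 treated libraries and 12 over the 3 controls, too few to be tested, with a ratio of 0.459 and an exact 95% counting interval of 0.141 to 1.32. Its window (chr5:155013635-155013784 on the plus strand) carried the same pair of elements as KIF4A. Aligned without gaps, 163 of 263 overlapping bases were identical (62.0%). The identity was concentrated at the end of the alignment, with 94 of the last 100 bases identical, from -87 to 13 relative to the KIF4A start.
KIF4B: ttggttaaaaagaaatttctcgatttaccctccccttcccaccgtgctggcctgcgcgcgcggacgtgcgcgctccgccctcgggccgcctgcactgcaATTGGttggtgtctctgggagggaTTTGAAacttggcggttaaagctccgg
Of the 50-base stretches in KIF4B transcripts, 14.0% also occurred in KIF4A transcripts, and of those in KIF4A transcripts 13.4% occurred in KIF4B, so a part of the reads could be split between the copies.

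Cargo transport kinesins moved in both directions, with more falls than rises. Of 12 tested, 2 rose, 6 fell and 4 were not called, and the median log2 change was -0.18. The shares over the whole set of genes were 32.3% higher and 31.2% lower, with a median of 0.02, so this list leaned to lower. With total-count scaling 4 were higher and 4 lower, with a median of -0.05, so the balance of directions rests on the scaling. The median of all genes was then 0.15, so that of transport kinesins lay below it on both scales. Whether 12 genes taken at random would lean as far was not tested.

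Kinesin-1, the main motor of outward transport, is a pair of heavy chains encoded by KIF5A, KIF5B or KIF5C with light chains. KIF5B, the heavy chain made in all tissues (ENSG00000170759, chromosome 10, 32009010 to 32056431), had 412, 396 and 399 CPM in treated libraries, against 566, 560 and 597 CPM in controls. Its log2 change was -0.51 (SE 0.045, edgeR adjusted p = 1.33e-15), and the groups stood well apart. KIF5A, known mainly from neurons, had 6.55, 4.53 and 6.28 CPM in treated libraries and 9.88, 10.0 and 10.9 CPM in controls (log2 change -0.83, SE 0.14, edgeR adjusted p = 6.35e-07). KIF5C, likewise known from neurons, had 2.94, 2.61 and 3.21 CPM in treated libraries and 1.49, 1.33 and 1.03 CPM in controls. It rose by 1.19 on the log2 scale (SE 0.27, edgeR adjusted p = 9.92e-05). The heavy chains thus moved in both directions, with the one that rose at the lowest level.

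Kinesin-2 motors carry ciliary material. KIF3A and KIF3B form the heterotrimeric motor together with KIFAP3, and KIF3C can take the place of KIF3B. KIF3A averaged 28.5 ± 0.48 CPM in treated libraries and 36.3 ± 2.03 CPM in controls (log2 change -0.35, SE 0.076, edgeR adjusted p = 6.27e-05). KIF3B averaged 128 ± 4.78 CPM in treated libraries and 145 ± 8.54 CPM in controls (log2 change -0.17), a call that was lost with total-count scaling (-0.05, edgeR adjusted p = 0.446). KIF3C averaged 60.1 ± 6.14 CPM in treated libraries and 57.0 ± 0.91 CPM in controls and was not called (log2 change 0.08, edgeR adjusted p = 0.301). It was called higher without treated replicate 1 (0.16, edgeR adjusted p = 0.0398) and with total-count scaling (0.20). KIF17, a kinesin-2 made of 2 like chains and known from neurons and cilia (ENSG00000117245, chromosome 1, 20664014 to 20718017), had 5.78, 4.77 and 5.43 CPM in treated libraries, against 1.84, 1.27 and 1.41 CPM in controls. It rose by 1.82 on the log2 scale (SE 0.22, edgeR adjusted p = 6.89e-11), the largest rise of a tested kinesin, and 95.1% of all tested genes had a lower log2 change.

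Kinesin-3 motors carry endosomes, dense vesicles and other membrane cargo. KIF13A, a motor of recycling endosomes, averaged 78.5 ± 2.70 CPM in treated libraries and 117 ± 0.96 CPM in controls (log2 change -0.58, SE 0.054, edgeR adjusted p = 9.46e-15). KIF13B had 29.5, 33.9 and 35.5 CPM in treated libraries and 37.7, 37.6 and 37.5 CPM in controls, a log2 change of -0.19 (edgeR adjusted p = 0.0229). That small fall was not called without treated replicate 1 (-0.12, edgeR adjusted p = 0.208) or with upper-quartile or total-count scaling. KIF1C, at 356 ± 12.3 CPM in treated libraries and 333 ± 20.3 CPM in controls, was not called (log2 change 0.10, edgeR adjusted p = 0.0722). It was called higher with upper-quartile (0.15) and total-count scaling (0.22), with a filter of 1 CPM (0.11) and without control replicate 1 (0.13). KIF1B (112 ± 4.63 CPM in treated libraries and 115 ± 6.15 CPM in controls) and KIF16B, a motor of early endosomes (6.15 ± 0.45 CPM in treated libraries and 7.01 ± 0.83 CPM in controls), were not called, with edgeR adjusted p of 0.530 and 0.264.

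Among 4 tested kinesins of cilia and centrioles, 1 rose, 1 fell and 2 were not called (median log2 change 0.05). For all tested genes these shares were 32.3% higher and 31.2% lower, so 4 genes are too few to set apart. KIF27, known in the mouse from motile cilia, had 5.59, 4.33 and 5.24 CPM in treated libraries, against 2.01, 3.14 and 2.38 CPM in controls. It rose by 1.01 on the log2 scale (SE 0.20, edgeR adjusted p = 1.32e-05), but 31.7% of the 50-base stretches of its transcripts also occurred in transcripts of other genes, so its count is uncertain. KIF7, which acts at the tip of the cilium in Hedgehog signalling, averaged 34.2 ± 2.68 CPM in treated libraries and 40.4 ± 0.96 CPM in controls (log2 change -0.24, edgeR adjusted p = 0.00323). It was not called with total-count scaling (-0.11), and 11.8% of its exon bases lay in exons of TICRR. KIF24, a centriolar motor that restrains cilium formation, averaged 43.8 ± 1.64 CPM in treated libraries and 40.2 ± 1.56 CPM in controls. Its treated libraries all lay above the controls, yet the difference was not called (log2 change 0.12, edgeR adjusted p = 0.107), except with upper-quartile (0.18) and total-count scaling (0.25). KIF9 had 1.70 to 3.05 CPM in treated libraries and 1.72 to 2.90 CPM in controls, fully overlapping, and 17.9% of its exon bases lay in exons of other genes.

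The remaining 4 tested members act on microtubule ends or no longer move. KIF26B, which lacks motor ATPase activity and is known in the mouse from kidney development and Wnt5a signalling (ENSG00000162849, chromosome 1, 245154985 to 245709431), had 13.7, 18.4 and 15.3 CPM in treated libraries, against 3.79, 6.35 and 5.58 CPM in controls. Even the lowest treated library held more than the highest control by a wide margin. It rose by 1.59 on the log2 scale (SE 0.14, edgeR adjusted p = 5.68e-16). KIF21A, which slows microtubule growth, had 16.5, 13.2 and 17.4 CPM in treated libraries and 9.30, 8.04 and 10.4 CPM in controls (log2 change 0.76, SE 0.12, edgeR adjusted p = 8.88e-08). Its relative KIF21B was not called, at 5.04 ± 0.047 CPM in treated libraries and 5.18 ± 0.42 CPM in controls (edgeR adjusted p = 0.856). KIF2A, a depolymerase related to KIF2C that also acts outside mitosis, averaged 65.5 ± 1.69 CPM in treated libraries and 78.9 ± 3.24 CPM in controls (log2 change -0.27, SE 0.058, edgeR adjusted p = 5.23e-05).

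The other 8 members did not pass the filter on low counts. KIF1A, a motor of synaptic vesicle precursors in neurons, had 14, 7 and 3 counts in treated libraries, against 0, 0 and 1 in controls. The ratio of its summed counts, corrected for depth, was 22.05 with an exact 95% counting interval of 3.60 to 907. KIF6, known in the mouse from ependymal cilia, had 5, 11 and 6 counts in treated libraries, against 0, 0 and 1 in controls, a ratio of 20.2 with an interval of 3.27 to 834. Both were thus at a trace level in treated libraries and nearly absent in controls, and intervals cover counting error only. KIF25 had 9 counts in treated libraries and 5 in controls (ratio 1.65, interval 0.498 to 6.28). KIF12 and KIF26A had 4 counts each in treated libraries and 0 in controls, and KIF2B and KIF19 had 0 in all 6 libraries, besides KIF4B as given above.

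Compared per length, as TPM (counts per base of transcript, scaled to the same sum in every library), KIF5B was the most abundant kinesin in both groups, at 306 ± 7.32 TPM in treated libraries and 417 ± 16.7 TPM in controls. In treated libraries the transport motor KIF1C (186 ± 5.39 TPM) overlapped the depolymerase KIF2C (187 ± 4.88 TPM) in the place after KIF5B. Next in treated libraries came KIF20A, KIF22, KIF3B, KIF11, KIF4A and KIF23, at means of 102 down to 85.8 TPM. Neighbours among these genes overlapped, while KIF23 did not overlap KIF2A, the gene after it. In controls the mitotic motors KIF2C (279 ± 10.2 TPM), KIF20A (245 ± 7.41 TPM), KIF23 (218 ± 8.80 TPM), KIF11 (208 ± 4.70 TPM) and KIF4A (178 ± 3.61 TPM) followed, and no neighbours among these 6 genes overlapped between libraries. KIF18A stood at 23.8 ± 0.82 TPM in treated libraries and 65.6 ± 3.58 TPM in controls, rank 19 among the kinesins in treated libraries and rank 14 in controls. The tested kinesins that rose at least 2-fold were at low levels: KIF17, KIF26B, KIF27 and KIF5C were at 5.34, 4.91, 4.40 and 1.42 TPM in treated libraries and at 1.44, 1.55, 2.09 and 0.594 TPM in controls.

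Summed over all 39 genes, kinesin transcripts made up 1723 ± 20.4 TPM in treated libraries and 2614 ± 30.6 TPM in controls. Mitotic kinesins summed to 844 ± 23.0 TPM in treated libraries and 1625 ± 10.5 TPM in controls, and transport kinesins to 735 ± 5.28 TPM in treated libraries and 845 ± 17.4 TPM in controls. Mitotic genes thus accounted for 49.0% ± 0.83 of the kinesin sum in treated libraries and 62.2% ± 0.33 in controls. The share of transport genes was 42.7% ± 0.68 in treated libraries and 32.3% ± 0.29 in controls, although their summed level was lower in treated libraries, since shares add up to a fixed total. TPM values are not TMM-scaled, and these sums are given with no test.

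**Figure D3:**
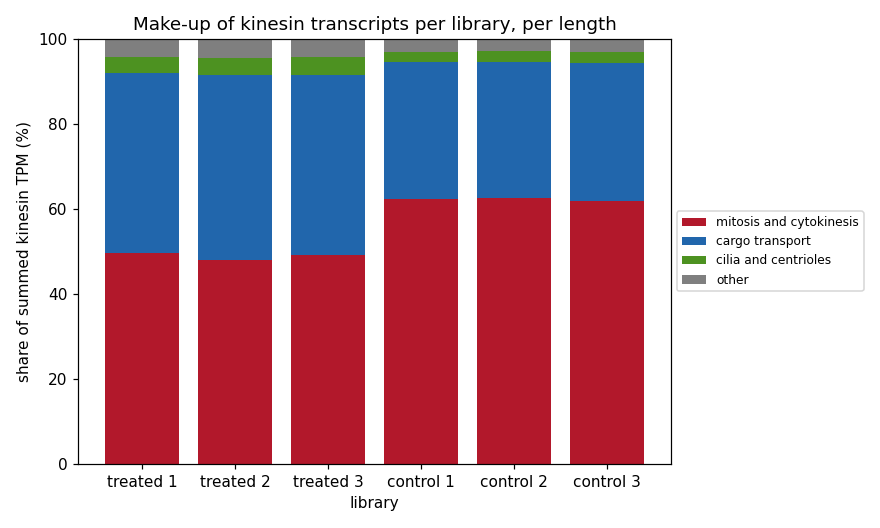
Share of the summed kinesin TPM taken by each role in each library, with the 3 treated libraries on the left and the 3 controls on the right. Bars add up to 100% in each library. The mitotic share is 48.1% to 49.7% in treated libraries and 61.8% to 62.5% in controls.

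Ratios between close relatives were set side by side. The log2 ratio of 2 related genes within a library does not depend on library scaling. It was compared over 8 of 10 listed pairs, those with both genes tested. For KIF20A over KIF20B it was 0.19, 0.22 and 0.15 in treated libraries and 0.88, 0.66 and 0.67 in controls, a difference of -0.55. For KIF18A over KIF18B the means were -1.35 ± 0.11 in treated libraries and -0.72 ± 0.12 in controls, a difference of -0.62. In both mitotic pairs the ratio was lower in every treated library than in any control. KIF2C over KIF2A, a mitotic motor over its broader relative, had means of 1.22 ± 0.061 in treated libraries and 1.59 ± 0.093 in controls.

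Among transport and other pairs, KIF5C over KIF5B had the largest difference, 1.71, with means of -7.11 ± 0.14 in treated libraries and -8.82 ± 0.32 in controls. KIF21A over KIF21B averaged 1.63 ± 0.20 in treated libraries and 0.83 ± 0.29 in controls. KIF13A over KIF13B averaged 1.26 ± 0.13 in treated libraries and 1.64 ± 0.011 in controls. The ratio of KIF1B to KIF1C differed by -0.14, and that of KIF3C to KIF3B by 0.24 with overlapping libraries (exact permutation p = 0.20). In the other 7 pairs the groups did not overlap, which gives an exact two-sided permutation p = 0.10 each (0.114 adjusted over the 8 pairs), the smallest that 3 against 3 libraries allow, so no pair could pass a threshold of 0.05. Libraries without overlap were common, at 66.7% of all single genes tested, and the share over other pairs of genes was not computed.

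**Figure D4:**
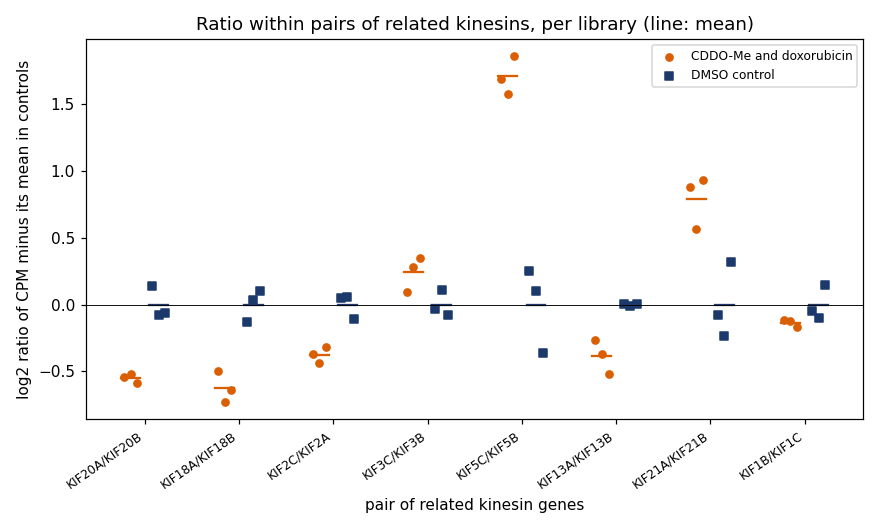
Log2 ratio of CPM within 8 pairs of related kinesin genes in each library, minus the mean of that pair in controls. Orange circles are treated libraries, blue squares are controls and short lines are means. KIF5C over KIF5B stands 1.71 above its control mean and KIF18A over KIF18B 0.62 below it, and libraries overlap for KIF3C over KIF3B.

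The other 5 kinesins carry symbols outside the naming rule. CENPE, a kinesin of the kinetochore, averaged 43.3 ± 6.53 CPM in treated libraries and 125 ± 5.60 CPM in controls (log2 change -1.53, edgeR adjusted p = 2.81e-30), and KIFC1, which focuses spindle poles, 111 ± 6.45 CPM in treated libraries and 201 ± 7.22 CPM in controls (log2 change -0.85, edgeR adjusted p = 7.08e-23). STARD9 fell by 0.33 on the log2 scale, KIFC2 rose by 0.33 with overlapping libraries, and KIFC3 was not called (0.01). Over these 5 genes, 3 fell and 1 rose, where 31.2% of all tested genes were called lower and 32.3% higher.

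Partners and kinases of the mitotic kinesins fell in 25 of 29 tested genes, 11 of them at least 2-fold, and rose in 3, with a median log2 change of -0.83. Across all tested genes 31.2% were called lower, 4.62% lower at least 2-fold and 32.3% higher. The 3 with the largest change were the kinases PLK1 (log2 change -2.36) and AURKA (-1.62) and the spindle protein HMMR (-1.69). RACGAP1, the other subunit of centralspindlin beside KIF23, fell by 1.13 on the log2 scale (119.9 ± 1.71 CPM in treated libraries and 263 ± 5.13 CPM in controls), and CIT, the citron kinase partner of KIF14, by 0.83. TPX2, which binds KIF11 and KIF15, fell by 1.21, whereas MAPRE3 (0.84), SKA1 (0.41) and NEK9 (0.37 on the log2 scale) rose. PRC1, the partner of KIF4A, had only 1.90 ± 0.76 CPM in treated libraries and 3.46 ± 0.36 CPM in controls. Its fall (log2 change -0.87) thus rests on low counts. The counting options are not given and exon overlap was not computed for PRC1. How far its count reflects its level was not tested. RACGAP1, CIT, TPX2, PRC1 and the 3 genes that rose were named after their values were seen.

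Of 23 tested light chains and cargo adaptors, 8 rose and 10 fell, where 32.3% of all tested genes were called higher and 31.2% lower, so the list is not set apart by its counts. The median log2 change was -0.12, and with total-count scaling 8 rose and 5 fell, with a median of 0.005. MAP7, which recruits kinesin-1 to microtubules, had a trace level of 0.967 ± 0.40 CPM in treated libraries and 0.228 ± 0.051 CPM in controls (log2 change 2.05, SE 0.51). It passed the filter on low counts only through the treated libraries, so its call is not read as support for a change. Its relative MAP7D3 fell by 0.86 on the log2 scale and the scaffold gene MAPK8IP2 rose by 0.83. KIFAP3, the third subunit of the KIF3A motor, fell by 0.57, and RHOT1 and TRAK2, which couple mitochondria to kinesin-1, fell by 0.71 and 0.66 on the log2 scale (these 3 were named after their values were seen).

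**Figure D5:**
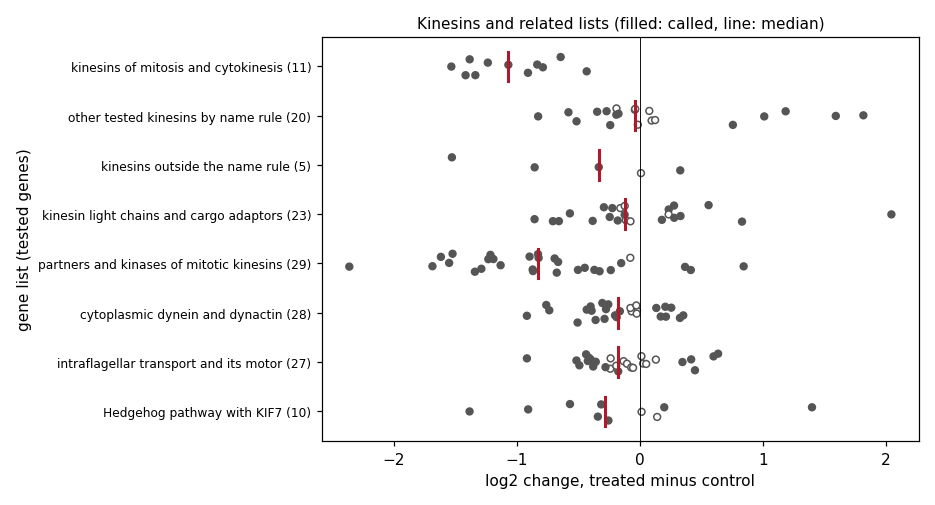
Log2 change (treated minus control) of each tested gene in the 2 parts of the kinesin set and in 6 related lists, with the number of tested genes in brackets. Filled points were called, and red lines are medians. The medians are -1.07 for mitotic kinesins, -0.04 for the other tested kinesins and -0.83 for partners and kinases of mitotic kinesins.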

How the data were processed

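The table deposited by the authors gives raw counts of reads per gene from unstranded poly(A) libraries, with exon coordinates and summed exon length in bases, per the file headers and the labels' protocols. The hg38 (GRCh38) build, STAR, SAMtools and featureCounts of Subread are named, with no versions, per the submitters' processing notes; the annotation release and the counting options are not given in the sources used here, so reads in exons of several genes may have been dropped or shared. Symbols came from the given gene name table or, where it had none, from GENCODE release 29, together for 58179 of 58299 identifiers; gene types came from GENCODE, which had identical start and end for 38 of the 39 kinesins.

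Low genes were removed by filterByExpr at a minimum count of 10, libraries were TMM-normalised, and the groups, taken from the titles, were compared with edgeR 4.0.16 (glmQLFit, glmQLFTest, R 4.3.3) over all 15575 genes, with p-values adjusted by Benjamini-Hochberg and called below 0.05. Standard errors were taken as the absolute log2 change over the square root of F. Means are given ± SD with n = 3 libraries a group. The fit was tested on simulated data. TPM used the deposited lengths. Ratios of low counts carry exact binomial intervals (95%, scipy 1.17.1) and are scaled by total counts. Pairs of genes were compared with an exact permutation test. Replicates of a group differed by more than sampling noise (chi-square over its degrees of freedom 2.84 to 3.77), so none was merged.

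All tested members are named; of each related list the 3 genes with the largest log2 change are named. Alternatives were 3 other scalings (total-count, upper-quartile, RLE), filtering at 1 CPM in 3 libraries or not at all, DESeq2 1.42.0, limma-voom (limma 3.58.1), glmTreat against 1.5-fold, an adjusted p of 0.01, a replicate block and each library left out. The members and lists were chosen with earlier results of these data known. Promoter windows are RefSeq's, and 50-base stretches were compared over GENCODE release 29 transcripts.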

Additional observations from a re-analysis of the deposited data

How the results depend on the processing

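Over 16 alternative settings, 461 of 496 values of the 31 tested kinesins kept their direction and their side of the threshold, 17 lost a call, 8 gained one and 10 turned sign. Genes whose sign turned were never called: KIF1B became 0.013 with upper-quartile and 0.088 with total-count scaling, KIF21B 0.016 and 0.090 under the same scalings, and KIF9 0.037 and 0.11. Without one library KIF21B ran from -0.11 to 0.0058 (above 0 only without control replicate 1) and KIF9 from -0.29 to 0.17, above 0 without treated replicate 1 or 3 or control replicate 2. Total-count scaling raised the count of higher kinesins to 8. With glmTreat against 1.5-fold, 9 kinesins were lower and 4 higher, and over all genes 1852 were higher and 1141 lower; the stricter null is the alternative's own construction. The cause of the other differences was not tested. Without one library, 5 to 6 kinesins were higher and 18 to 19 lower. DESeq2 and limma-voom each gave 5 higher and 19 lower. Leaving out members with over 10% exon overlap, a choice made after seeing the data, gave 4 higher and 17 lower of 27. The mitotic share of kinesin TPM is the same with RPKM, since both scale by length within a library. Replicate numbers are shared between the groups, but same-numbered libraries did not deviate together (correlations of -0.047, -0.028 and -0.015 over genes), and no library correlated best with its own number. A replicate block gave 5 higher and 19 lower kinesins, and 4892 higher and 4761 lower over all genes. Low counts limit KIF5C, KIF17, KIF27 and the 8 untested members.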

Other observations

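The motor that moves toward microtubule minus ends, opposite to most kinesins, was described in a list of cytoplasmic dynein, dynactin and their regulators. Of 28 tested genes, 7 rose and 15 fell, none of them by 2-fold, with a median log2 change of -0.17, or -0.05 with total-count scaling. Over all tested genes 32.3% were called higher and 31.2% lower. The largest changes were in the dynactin genes DCTN3 (49.9 ± 2.30 CPM in treated libraries and 94.3 ± 2.84 CPM in controls, log2 change -0.92), CAPZA2 (-0.76) and CAPZB (-0.74); the last 2 also encode actin-capping protein. The list held no change as large as those of the 6 mitotic kinesins that fell at least 2-fold.

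Genes of intraflagellar transport, whose outward motor is KIF3A with KIF3B, rose in 5 and fell in 11 of 27 tested, with a median log2 change of -0.17, or 6 and 8 with a median of -0.05 with total-count scaling. The shares over all tested genes were 32.3% higher and 31.2% lower. TTC26 fell by 0.92 on the log2 scale, while IFT20 (0.64) and IFT27 (0.60) rose. In the Hedgehog pathway, in which KIF7 acts, 6 of 10 tested genes fell and 2 rose, or 4 and 3 with total-count scaling. The same shares over all tested genes stand beside these counts. The transcription factor gene GLI2 averaged 16.97 ± 0.39 CPM in treated libraries and 44.2 ± 5.97 CPM in controls (log2 change -1.38), GLI1 fell by 0.91 on the log2 scale, and HHIP, a secreted antagonist of the pathway, rose by 1.40.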
